A study of Mus musculus with 20 samples.

Results

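The stretch of mouse chromosome 19 around Btaf1 and Kif11 was examined here through 10 neighbouring protein-coding genes, Hectd2, Tnks2, Fgfbp3, Btaf1, Cpeb3, Marchf5, Ide, Kif11, Hhex and Exoc6, of 21887 in the gene table. A region belonged to the stretch if it overlapped the annotated span of one of these genes extended by 20 kb on both sides, which reached from 36534126 to 37704052 on chromosome 19 (mm10). After regions of all libraries had been merged where they overlapped, 37 of 46767 merged regions met this rule. The genes were selected on the H3K27ac and input densities of these same libraries, old against young, so the old-against-young values below describe that choice and carry no p-value.

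The study measured histone H3 acetylated at lysine 27 (H3K27ac) by chromatin immunoprecipitation and sequencing in hepatocytes, the metabolic cells that make up most of the liver, obtained by perfusion. Old mice were 23 months of age and of the substrain C57BL/6J, young mice 5 months and C57BL/6N, with 5 H3K27ac libraries per age. Each library had been called against its own input, which is chromatin sequenced without immunoprecipitation, and the input enters here as the value given for each region. Human chromatin had been added to every sample as a spike-in, but spike-in scaling was not analysed here. Age and substrain coincide in the labels, so their contributions cannot be told apart. The labels used here give neither the sex nor whether the libraries come from different mice, so the spread between libraries may be partly technical.

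H3K27ac marks active promoters and enhancers, where acetyltransferases place it on the nucleosomes beside bound transcription factors. Input follows how many copies of a segment the sample holds and how readily its chromatin is sheared and recovered, and it shows no acetylation by itself. A segment of this chromosome carrying Ide and Fgfbp3 is known to vary in copy number among C57BL/6J mice. Copy number was not measured here, and it cannot be told apart from age or substrain in this design.

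Btaf1 encodes an ATPase that removes the TATA-binding protein from DNA. Kif11 encodes a kinesin that pushes the poles of the mitotic spindle apart. Ide is the insulin-degrading zinc protease, Fgfbp3 a secreted protein that binds fibroblast growth factors, and Hhex a homeobox factor needed to form the liver. Tnks2 is a tankyrase, an ADP-ribosylating enzyme that marks axin for destruction, and Cpeb3 binds cytoplasmic polyadenylation elements in messenger RNA. Marchf5 is a ubiquitin ligase of the outer mitochondrial membrane, Hectd2 a ubiquitin ligase of the HECT type, and Exoc6 a subunit of the exocyst, which tethers secretory vesicles.

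The promoters at which the stretch divides are printed here from RefSeq (GRCm38.p6), each 5′ to 3′ on the strand of its gene, from 250 bases before to 50 bases after the annotated start. Btaf1 (chr19:36925829-36926128, plus strand) and Kif11 (chr19:37376132-37376431, plus strand) lie in regions with more H3K27ac and input in old hepatocytes. Tnks2 (chr19:36833982-36834281, plus strand) and Marchf5 (chr19:37207290-37207589, plus strand) lie in regions of like strength beside and between them whose differences were near 0. The Ide promoter (chr19:37334495-37334794, minus strand) lies in no called region. Capitals mark the motifs found.
Btaf1: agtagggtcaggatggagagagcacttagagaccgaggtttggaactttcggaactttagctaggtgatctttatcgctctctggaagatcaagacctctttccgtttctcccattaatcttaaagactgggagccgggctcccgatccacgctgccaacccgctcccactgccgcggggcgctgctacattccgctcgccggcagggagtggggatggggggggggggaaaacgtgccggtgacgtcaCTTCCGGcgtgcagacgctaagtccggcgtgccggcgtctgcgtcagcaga
Kif11: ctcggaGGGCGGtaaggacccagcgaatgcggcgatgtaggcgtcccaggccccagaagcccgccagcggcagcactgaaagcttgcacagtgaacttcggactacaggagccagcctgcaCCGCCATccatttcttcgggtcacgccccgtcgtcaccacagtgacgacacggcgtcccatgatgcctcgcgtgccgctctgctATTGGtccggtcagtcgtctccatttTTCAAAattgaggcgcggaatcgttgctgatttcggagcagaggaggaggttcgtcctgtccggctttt
Tnks2: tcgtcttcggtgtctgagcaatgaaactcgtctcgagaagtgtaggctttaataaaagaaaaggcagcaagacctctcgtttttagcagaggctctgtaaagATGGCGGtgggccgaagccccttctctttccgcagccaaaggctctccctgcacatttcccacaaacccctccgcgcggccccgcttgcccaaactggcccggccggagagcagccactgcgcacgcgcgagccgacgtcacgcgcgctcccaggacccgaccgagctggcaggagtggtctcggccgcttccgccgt
Marchf5: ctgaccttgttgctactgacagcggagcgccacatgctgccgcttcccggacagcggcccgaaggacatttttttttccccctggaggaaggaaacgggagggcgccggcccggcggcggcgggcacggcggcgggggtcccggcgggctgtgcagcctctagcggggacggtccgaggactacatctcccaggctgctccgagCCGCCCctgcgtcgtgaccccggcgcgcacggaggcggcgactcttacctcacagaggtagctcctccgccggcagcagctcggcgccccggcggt
Ide: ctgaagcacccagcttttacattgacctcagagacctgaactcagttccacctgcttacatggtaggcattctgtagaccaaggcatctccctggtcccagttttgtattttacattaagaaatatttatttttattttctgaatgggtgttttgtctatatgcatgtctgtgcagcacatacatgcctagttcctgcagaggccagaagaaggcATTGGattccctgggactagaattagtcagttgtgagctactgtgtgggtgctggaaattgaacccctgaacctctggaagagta

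Of 9 short motifs searched on both strands, the Btaf1 promoter held the ETS core CCGGAAG at its start, present in 8.86% of all 32817 promoters of the table. The Kif11 promoter held the GC box GGGCGG (35.6% of promoters), the CCAAT box (37.4%), the YY1 core ATGGCGG (4.05%) and the cell-cycle element TTTGAA (17.9%). Tnks2 held ATGGCGG, Marchf5 GGGCGG and Ide CCAAT. None of the 9 motifs was found in both the Btaf1 and the Kif11 promoter. NRF1 (GCATGCG, 3.57%), the TATA box TATAAA (13.6%), the E-box CACGTG (7.15%) and TTCGAA (1.56%) matched none of these 5 promoters. The promoters of Btaf1, Kif11 and Tnks2 were 60%, 60.67% and 61.67% G and C, that of Marchf5 71.67% and that of Ide 44%.

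Each library held 6295930 to 15544145 tags and 21213 to 30195 called regions, and 12550 merged regions were called in all 10 libraries. Regions were called at all 10 hepatocyte marker genes in every library, and at 1 to 2 of 9 Kupffer cell and leukocyte, 0 to 2 of 6 endothelial, 0 to 1 of 6 stellate and 1 to 2 of 5 bile duct markers. Of these markers, Ptprc, Clec4f, Pecam1, Cdh5, Lrat, Krt19 and Epcam had no called region in any library. In the same lists, Cd68, Cd79a, Stab2, Clec4g, Tie1, Reln, Sox9 and Spp1 did have called regions, in some or all libraries. The share of tags inside called regions, the IP efficiency, was 24.53% to 35.84% in old libraries and 34.63% to 48.23% in young ones. Young replicate 5 stood apart with the most tags and an estimated fragment length of 620 bp, against 414 to 444 bp in the other libraries. In bulk chromatin, a change in the share of cells carrying a mark and a change within each cell cannot be told apart.

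Values below are tags per kb of called region per 10000000 tags, for H3K27ac and for input alike. Log2 differences, old minus young, come from limma fitted over all 12550 regions called in every library. Before that fit each library was centred on its median region, and 1 was added to H3K27ac and 0.5 to input before the logarithm.

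Of the 37 regions of the stretch, 30 were called in at least 2 libraries, 13 in all 10 and 7 in a single library. No region was called in all 5 libraries of one age and in 0 of the other. Of the 13 regions called throughout, 10 lay within 1 kb of an annotated gene end, 2 inside a gene and 1 between genes. Libraries called 21 to 32 of the regions, with the fewest in old replicate 5, the library of lowest depth.

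Estimates were above 0, meaning more in old hepatocytes, at 9 of the 13 regions in H3K27ac and at 8 in input. The largest differences were at 4 regions, which were set apart after their values were seen. They lie at the ends of Btaf1, of the long noncoding RNA gene 4931408D14Rik and of Kif11 and between Marchf5 and Ide. At these 4 the log2 differences were 0.59 to 0.81 for H3K27ac and 0.60 to 1.46 for input. At the other 9 regions the H3K27ac differences ran from −0.17 to 0.28 and the input differences from −0.18 to 0.59. On the map of differences along the chromosome, the other three of these regions follow one another among those called throughout, while Btaf1 lies apart. Between it and them lie 3 regions of Cpeb3 and Marchf5, with differences of −0.17 to 0.13 in H3K27ac and −0.11 to 0.26 in input.

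**Figure D1:**
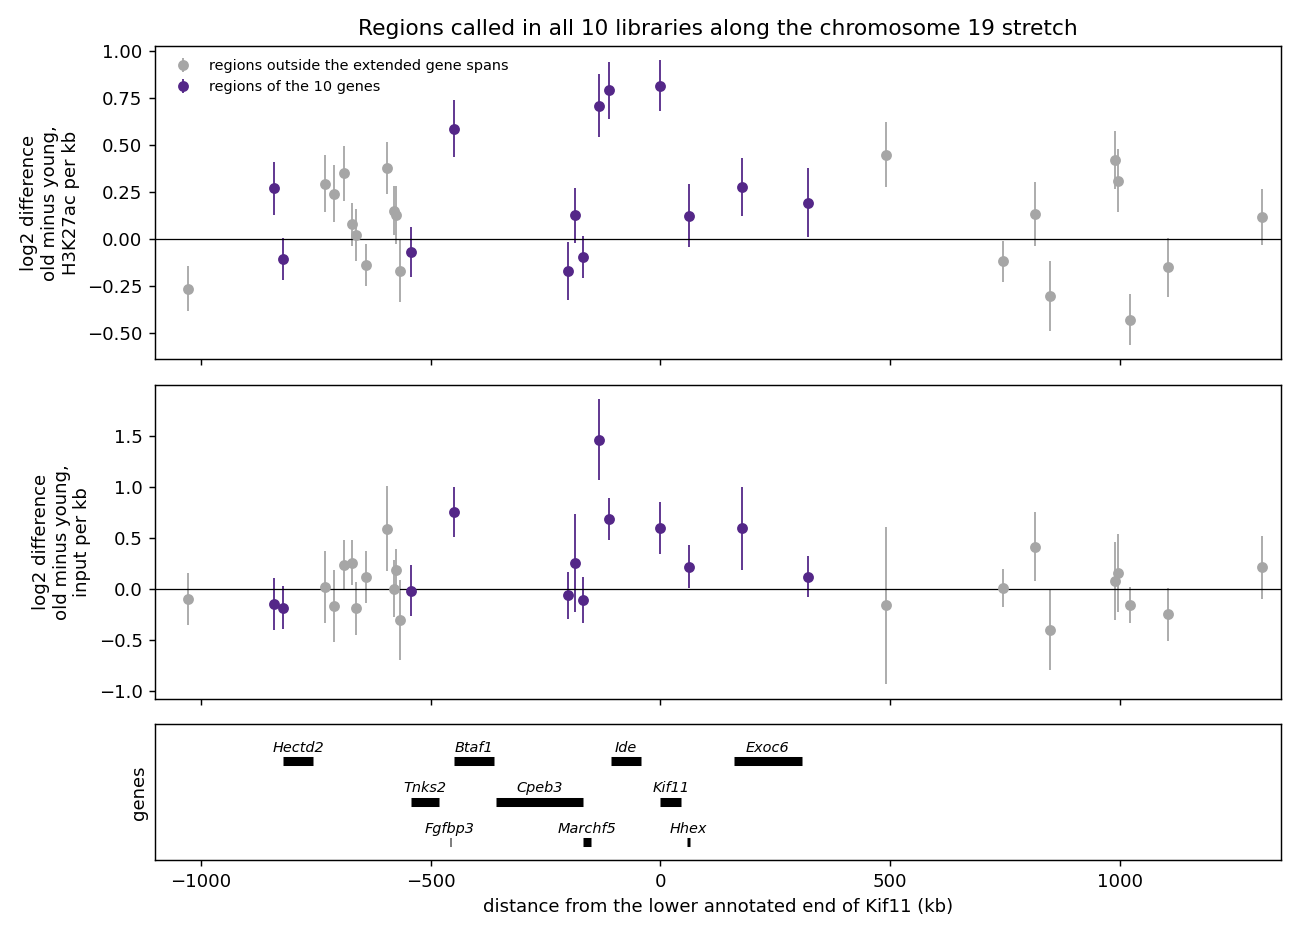
Log2 differences, old minus young, of H3K27ac (top) and input (middle) per kb for each region called in all 10 libraries, against its distance in kb from the lower end of Kif11, with gene spans below. Points are limma estimates and bars their SE; the regions at Btaf1, between Marchf5 and Ide, at 4931408D14Rik and at Kif11 stand at 0.59 to 0.81 in H3K27ac.

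Across the 13 regions, limma with Benjamini-Hochberg adjustment at 0.05 called 2 higher in H3K27ac in old, those of 4931408D14Rik and Kif11, beside 0.271% of all tested regions, and 0 lower, beside 0.0478%. These counts follow from the choice of the genes and are given as a description. Centred H3K27ac densities of all 5 old libraries lay above all 5 young ones at 3 regions (2.11% of all tested) and below at 0 (1.61%). Centred input densities did so at 1 region (0.167%) and lay below at 0 (0.255%). Without centring, H3K27ac separated the ages at 0 of the 13 regions, beside 0.231% of all tested with old above and 1.75% with old below. Limma called 0 of 12550 regions in input in either direction, with 348 at an unadjusted p under 0.05, and edgeR on the unscaled input tags also called 0, with 293 unadjusted. The median difference over the 13 regions was 0.19 in H3K27ac and 0.22 in input, against 0.00 and −0.01 over all tested regions.

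The Btaf1 end, 36924775 to 36928175, was the strongest of the 4. Its H3K27ac density was 194, 287, 271, 165 and 181 in old replicates 1 to 5, and 125, 216, 171, 182 and 124 in young replicates 1 to 5. The ages overlapped on this scale, since young replicates 2, 3 and 4 exceeded old replicate 4, but did not overlap once each library was centred on its median region. Means were 219 ± 55.4 in old and 163 ± 39.5 in young libraries (SD, n = 5 each), a log2 difference of 0.59 ± 0.15 (SE).

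Input at the Btaf1 end was 16.4, 21.7, 19.7, 10.4 and 17.3 in old libraries and 12.9, 9.06, 20.5, 5.82 and 4.90 in young ones. The ages overlapped, with young replicate 3 higher than all old libraries but replicate 2. The log2 difference in input was 0.75 ± 0.25 and that of H3K27ac over input −0.17 ± 0.26 (SE). H3K27ac was 13 ± 2.02 times the input in old libraries and 19.7 ± 10.1 times in young ones (SD, n = 5 each).

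Fgfbp3 lies head to head with Btaf1 and shared its strong region. A region of its own, 36918226 to 36919293, was called in 1 old library and 3 young ones. Its H3K27ac density was 108 in old replicate 3, against 79.4, 54.7 and 36.4 in young replicates 2, 4 and 5, and its input 25.7 in that old library, against 19.4, 10.3 and 8.42. The single old value was the highest in both measures, and the RefSeq promoter of Fgfbp3 itself lay outside any called region.

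Between Marchf5 and Ide, a weak region outside any gene, 37241494 to 37244069, had the largest input difference of all 12550 regions. Its input was 8.01, 8.05, 8.35, 7.70 and 7.29 in old libraries and 3.63, 3.08, 0.577, 3.95 and 2.57 in young ones. All 5 old values lay above all 5 young ones, before and after centring. The means were 7.88 ± 0.40 in old and 2.76 ± 1.33 in young libraries (SD, n = 5 each), a log2 difference of 1.46 ± 0.40 (SE).

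Its H3K27ac was 33, 33.6, 44.3, 35.1 and 36.8 in old libraries and 40.2, 24.4, 22.2, 29.2 and 14.2 in young ones. Young replicate 1 was within the range of the old libraries, while the other 4 young values lay below that range. The log2 difference was 0.71 ± 0.17 in H3K27ac and −0.75 ± 0.41 in H3K27ac over input (SE). H3K27ac was 4.12 to 5.31 times the input in old libraries, close to the 4-fold that a call required, and 5.50 to 38.4 times in young ones. These densities rest on 0.556 to 20.6 unscaled input tags per library.

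The region at the end of 4931408D14Rik, 37261011 to 37266026, lies below the lower end of Ide and was the only region of the Ide window called in all 10 libraries. Its H3K27ac was 96.2, 93.4, 134, 93.1 and 84.9 in old libraries and 86.9, 76.6, 69.2, 49.1 and 47.0 in young ones. Young replicate 1 exceeded old replicate 5 on this scale, and no values overlapped after centring. Means were 100 ± 19.2 in old and 65.7 ± 17.4 in young libraries (SD, n = 5 each). The log2 difference from limma, on centred values, was 0.79 ± 0.15 (SE).

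Input at this region was 7.42, 7.51, 9.12, 9.0 and 8.59 in old libraries and 5.05, 3.67, 5.49, 4.68 and 5.23 in young ones. The ages did not overlap on this scale but did after centring. Without centring, input in old lay above young at 2 of the 13 regions, beside 0.478% of all tested, and below at 0, beside 0.0478%. Mean input was 8.33 ± 0.815 in old and 4.82 ± 0.711 in young libraries (SD, n = 5 each). The log2 difference from limma, on centred values, was 0.69 ± 0.21 in input and 0.10 ± 0.28 in H3K27ac over input (SE). Ide itself had 0 called regions inside its span in all 10 libraries. Above its upper end, 37345781 to 37347735 was called in 3 old and 2 young libraries and 37348792 to 37350200 in 2 old and 1 young library, at H3K27ac densities of 18.9 to 32.

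The Kif11 end, 37374873 to 37377067, had the largest H3K27ac difference of the stretch. Its H3K27ac was 192, 166, 180, 133 and 146 in old libraries and 143, 112, 110, 85.0 and 77.8 in young ones. Young replicate 1 exceeded old replicate 4 on this scale, and the ages did not overlap after centring. Means were 163 ± 23.9 in old and 105 ± 25.6 in young libraries (SD, n = 5 each), with a log2 difference of 0.81 ± 0.14 (SE), the 17th highest of 12550.

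Input at the Kif11 end was 24.7, 12.7, 18.5, 12.1 and 26.1 in old libraries and 15.2, 7.09, 17.5, 8.11 and 11.7 in young ones. The ages overlapped, with young replicates 1 and 3 above old replicates 2 and 4. The log2 difference was 0.60 ± 0.25 in input and 0.22 ± 0.25 in H3K27ac over input (SE). By rank among the 12550 regions, the H3K27ac differences of Btaf1, the region between Marchf5 and Ide, and 4931408D14Rik were 101, 36 and 19 from the top, and the input differences of these and of Kif11 were 90, 1, 139 and 247.

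**Figure D2:**
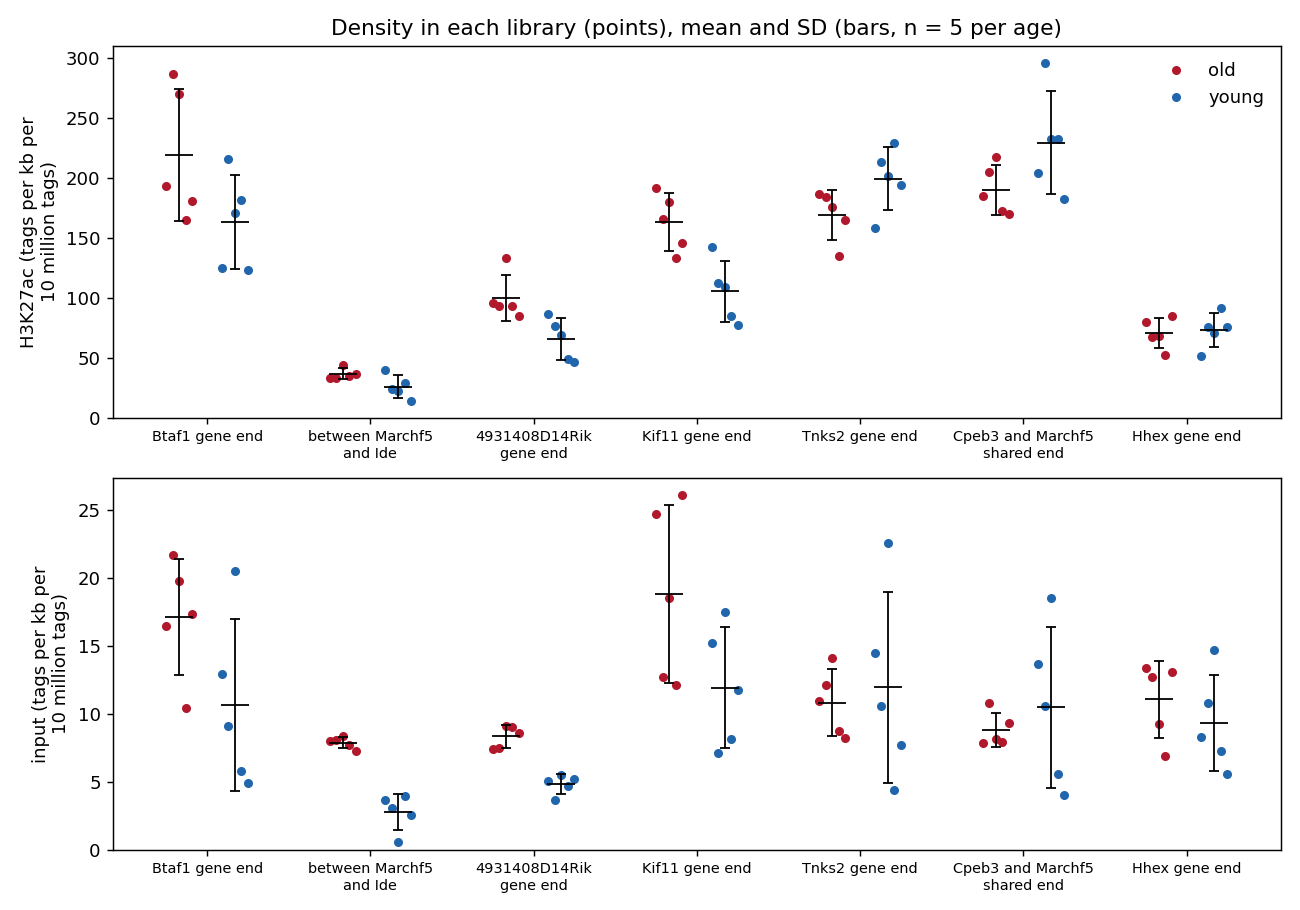
H3K27ac (top) and input (bottom) in tags per kb per 10000000 tags at the 4 regions with the largest differences and at 3 gene ends beside or between them, with a point per library, old left of young, and bars for mean and SD (n = 5 per age). The input points of the region between Marchf5 and Ide fall in separate bands, at 7.29 to 8.35 in old and 0.577 to 3.95 in young libraries.

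The other gene ends had smaller differences. Hectd2, at the start of the stretch, had its region at 36553075 to 36555866. It carried 182, 148, 167, 120 and 146 H3K27ac tags per kb in old libraries and 176, 210, 205, 215 and 126 in young ones, with an overlap and a log2 difference of −0.11 ± 0.11 (SE). Its input was 12.3, 11.6, 12.8, 6.88 and 12.4 in old libraries and 16.9, 11.7, 23.2, 7.97 and 6.76 in young ones. Input also overlapped, at −0.18 ± 0.21 (SE).

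Tnks2, the next gene towards Btaf1, had 186, 184, 176, 135 and 165 H3K27ac tags per kb in old libraries and 158, 213, 202, 229 and 195 in young ones at 36832701 to 36836134. Its input was 10.9, 12.1, 14.1, 8.70 and 8.24 in old libraries and 14.4, 10.6, 22.6, 4.36 and 7.68 in young ones. Both measures overlapped widely, with log2 differences of −0.07 ± 0.13 in H3K27ac and −0.02 ± 0.25 in input (SE).

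Cpeb3 and Marchf5 start back to back in 1 region, 37205803 to 37210771. It held 185, 205, 218, 172 and 170 H3K27ac tags per kb in old libraries and 204, 296, 232, 233 and 182 in young ones. Its input was 7.84, 10.8, 8.14, 7.91 and 9.28 in old libraries and 13.7, 10.6, 18.5, 5.58 and 4.03 in young ones. The ages overlapped in both, with log2 differences of −0.09 ± 0.11 in H3K27ac and −0.11 ± 0.23 in input (SE). Inside Cpeb3, the end of the noncoding gene A330032B11Rik, 37172260 to 37176600, differed by −0.17 in H3K27ac and −0.06 in input, and 37187704 to 37193590 by 0.13 and 0.26.

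Hhex lay beyond Kif11 in the longest merged region of the stretch, 37432937 to 37445199, which was also the region with the most tags in the Kif11 window. It held 80.0, 67.8, 68.4, 52.8 and 85.3 H3K27ac tags per kb in old libraries and 51.8, 75.7, 70.8, 91.9 and 75.6 in young ones. Its input was 13.4, 12.7, 9.25, 6.89 and 13 in old libraries and 8.29, 10.8, 14.7, 7.25 and 5.56 in young ones. Both overlapped, with differences of 0.12 ± 0.17 in H3K27ac and 0.22 ± 0.21 in input (SE).

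At the far end, the strongest region of the Exoc6 window that was called throughout belonged to Cyp26a1, the retinoic acid hydroxylase, at 37694892 to 37699547. It held 90.7, 62.7, 76.5, 65.2 and 44.4 H3K27ac tags per kb in old libraries and 50.9, 54.1, 91.8, 85.5 and 53.1 in young ones. Its input was 12.0, 10.2, 9.38, 9.27 and 10.5 in old libraries and 10.1, 5.97, 15.6, 10.7 and 5.89 in young ones. The ages overlapped in both, at 0.19 ± 0.18 in H3K27ac and 0.12 ± 0.20 in input (SE). The RefSeq promoter of Exoc6 lay in 37549804 to 37551668, called in 5 old and 4 young libraries at 78.5 to 116 and 71.8 to 160 H3K27ac tags per kb. Inside Exoc6, 37552469 to 37555119 differed by 0.28 ± 0.15 in H3K27ac and 0.59 ± 0.41 in input (SE), on 2.41 to 10.5 unscaled input tags per library.

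At the lower border of the extended spans, the end of the noncoding gene Gm32143 before Hectd2, 36533681 to 36535806, held 69.1 ± 6.93 H3K27ac tags per kb in old and 66.8 ± 18.6 in young libraries (SD, n = 5 each), a log2 difference of 0.27 in H3K27ac and −0.15 in input. At the upper border, 37701536 to 37703492 beside Cyp26a1 was called in 4 old libraries and 1 young one. Among regions outside the spans that were called throughout, 36643495 to 36647467 in Hectd2os, 2.36 kb past the Hectd2 window, differed by 0.29 and 0.02. The region 36808143 to 36810015, 4.11 kb before the Tnks2 window, differed by −0.17 and −0.30. Also between the Hectd2 and Tnks2 windows, 36778944 to 36784093 differed by 0.38 ± 0.14 in H3K27ac and 0.59 ± 0.42 in input (SE). The ages overlapped there in both, and the cause was not tested. The remaining regions of this gap that were called throughout ran from −0.14 to 0.35 in H3K27ac and from −0.19 to 0.26 in input. Past the upper border the first region called throughout, 37865932 to 37868222, lay 162 kb away and differed by 0.45 and −0.16.

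Pooling all called regions of a gene window and dividing by all other autosomal regions of the same library gave a value per gene, in which neighbouring windows share regions. Of the 10 windows, 3 had relative H3K27ac in old libraries above all young ones and 0 below, beside 1.27% and 1.29% of the 11579 windows of autosomal protein-coding genes with a called region in every library. These 3 are those of Btaf1, Fgfbp3 and Ide, of which the first pair rests on the same strong region. For Btaf1 it was 3.10 ± 0.703 in old and 1.84 ± 0.264 in young libraries, and relative input was 2.27 ± 0.580 and 1.39 ± 0.257 (SD, n = 5 each). The log2 differences were 0.74 and 0.68. Fgfbp3, which shares the Btaf1 region, stood at 0.70 in H3K27ac and 0.63 in input. Relative input overlapped between the ages in both windows. Old replicate 4 was at 1.52 in each, below young replicate 3 at 1.73 for Btaf1 and 1.97 for Fgfbp3.

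For the Ide window, relative H3K27ac was 1.13, 1.25, 1.47, 1.28 and 1.18 in old libraries and 1.00, 0.783, 0.733, 0.621 and 0.781 in young ones, without overlap. Relative input was 0.901, 1.01, 1.02, 1.17 and 1.02 in old libraries and 0.496, 0.529, 0.478, 0.786 and 0.984 in young ones, with young replicate 5 inside the old range. Both differed by 0.70 on the log2 scale. Kif11, whose window also holds the Hhex region, differed by 0.40 in H3K27ac and 0.41 in input with overlap. The windows of Hectd2, Tnks2, Cpeb3, Marchf5, Hhex and Exoc6 lay between −0.05 and 0.22 in H3K27ac and between −0.13 and 0.27 in input, all with overlap. These depend on the processing, most of all at Hhex, which ran from −0.25 in H3K27ac and −0.78 in input with the median over regions to 0.78 and 0.46 with a stricter HOMER score.

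**Figure D3:**
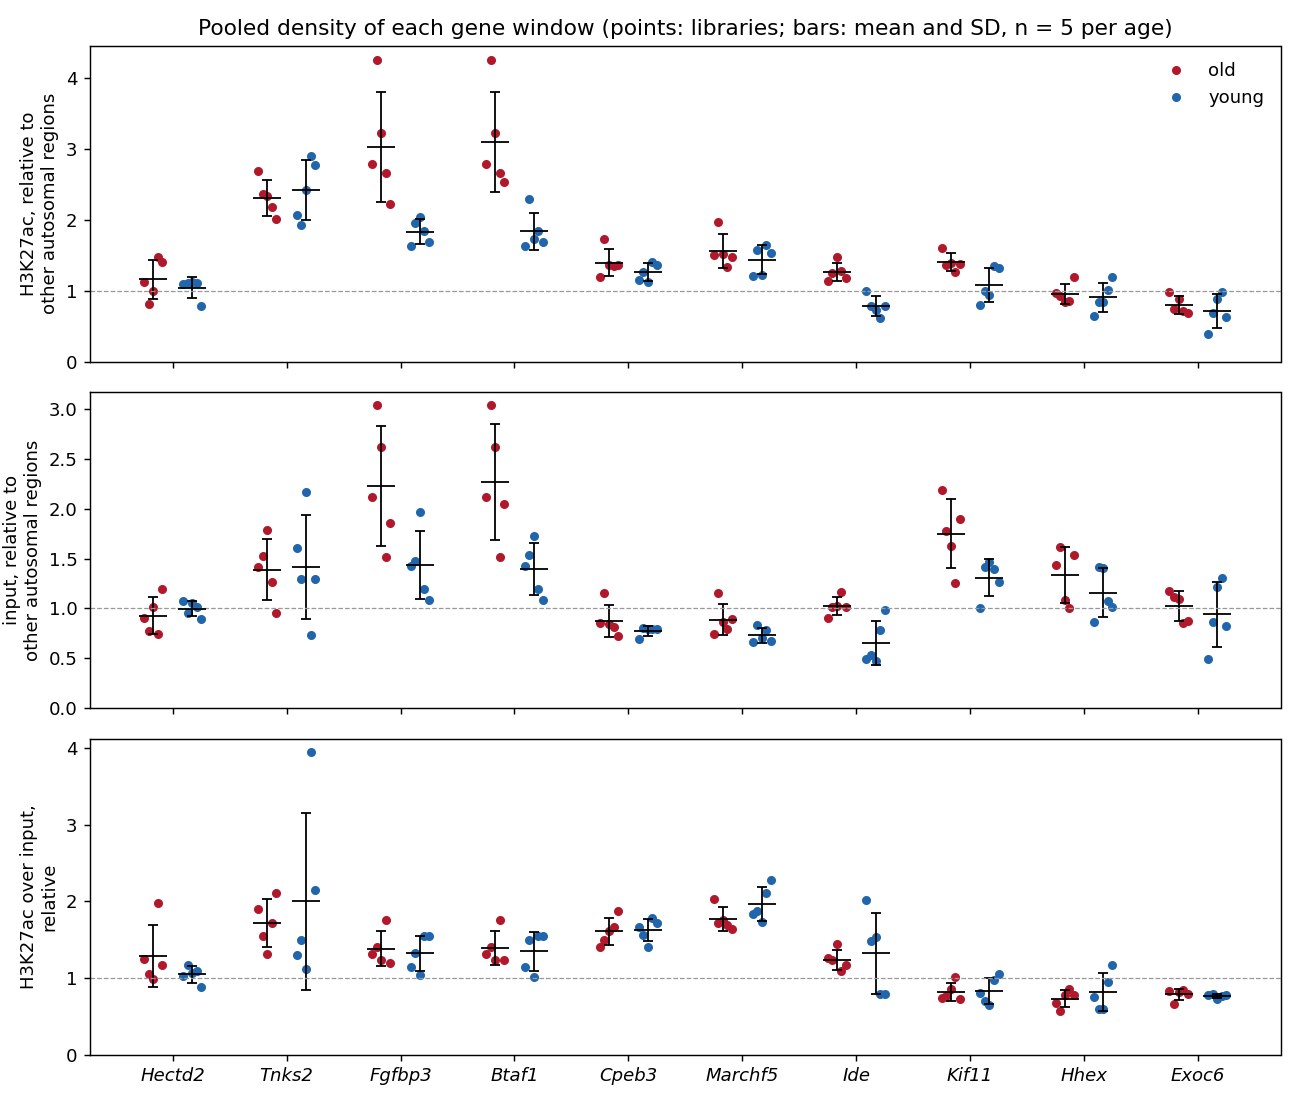
Density of each gene window relative to all other autosomal regions of the same library, for H3K27ac, input and H3K27ac over input, with a point per library, old left of young, and bars for mean and SD (n = 5 per age). The windows of Fgfbp3, Btaf1 and Ide separate the ages in H3K27ac, at log2 differences of 0.70 to 0.74, and none separates them in H3K27ac over input.

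In the windows of Btaf1, Fgfbp3, Ide and Kif11, H3K27ac over input differed less between the ages than either measure alone. Over the 10 windows its log2 difference lay between −0.15 at Marchf5 and 0.26 at Hectd2, and it was 0.06 at Btaf1, 0.07 at Fgfbp3, 0.00 at Ide and −0.01 at Kif11. The SD of the log2 ratio within ages was 0.25, 0.24, 0.44 and 0.25 in these 4 windows. At Ide the ratio ran from 1.09 to 1.44 in old and from 0.790 to 2.02 in young libraries. Among the 13 regions the log2 difference of the ratio was positive at 6 and negative at 7, with a median of −0.05 against 0.02 over all tested regions. After centring, the ratio separated the ages at 0 of the 13, beside 0.382% of all tested with old above and 0.335% with old below. Without centring it had old above young at 0 of the 13, beside 0.0239%, and old below young at 1, the region between Marchf5 and Ide, beside 1.17%. Of the 10 windows it separated 0, beside 0.276% of all windows with old above and 0.32% with old below. Limma called 0 of 12550 regions on this measure, with 364 at an unadjusted p under 0.05. The interval of the ratio is wide at each region, with SEs of 0.25 to 0.41 at the 4 regions.

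The 4 regions were also pooled as a group, which was put together after their values had been seen. Their relative H3K27ac was 1.92, 2.28, 2.24, 1.92 and 1.5 in old libraries and 1.23, 1.43, 1.23, 1.21 and 1.25 in young ones. Their relative input was 1.64, 1.73, 1.73, 1.45 and 1.51 in old libraries and 0.884, 0.828, 1.12, 0.957 and 1.15 in young ones. All old values lay above all young ones in both, with log2 differences of 0.62 and 0.71. The group was chosen for such values, so this separation is only a description, and no share over like groups was taken. Taken singly, centred input overlapped between the ages at the ends of Btaf1, 4931408D14Rik and Kif11. The ratio of the group was 1.22 ± 0.141 in old and 1.31 ± 0.263 in young libraries (SD, n = 5 each). The 3 regions between Btaf1 and this group's other members differed by 0.02 in H3K27ac and 0.07 in input, and the remaining 6 by 0.04 and 0.06. With the median over regions in place of pooling, the 3 regions between differed by −0.72 and −0.60. Without young replicate 5, the library of longer fragments, the 4 regions together differed by 0.62 in H3K27ac and 0.77 in input.

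**Figure D4:**
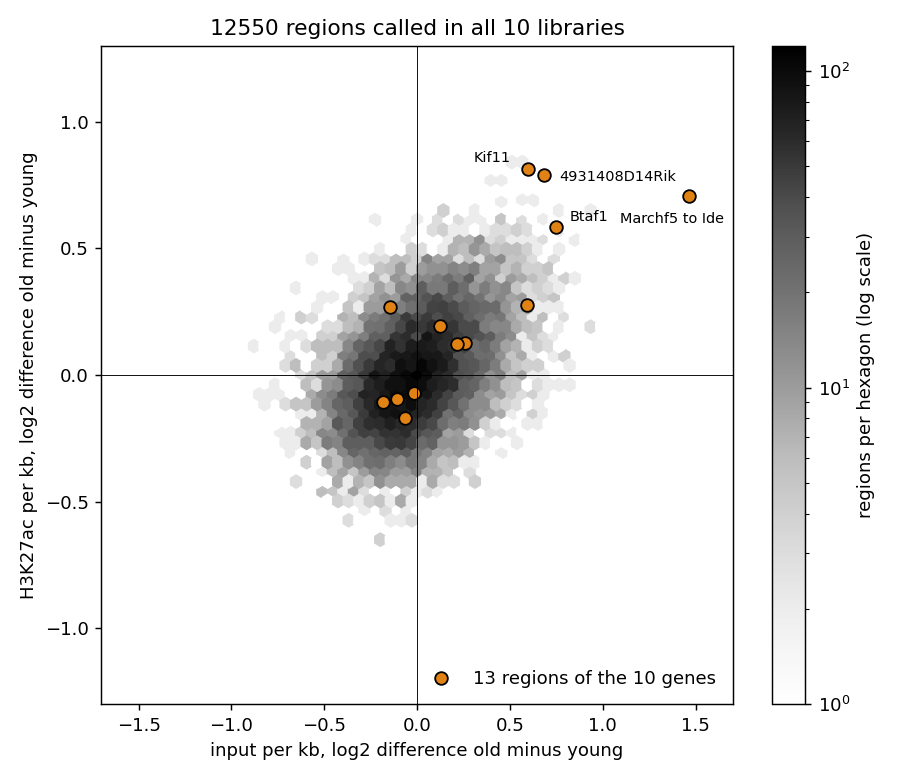
Log2 differences, old minus young, of input (horizontal axis) and H3K27ac (vertical axis) per kb for all 12550 regions called in all 10 libraries, in grey by number, with the 13 regions of the 10 genes in orange. The 4 named regions lie at the upper right edge, with the region between Marchf5 and Ide farthest along the input axis at 1.46.

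Taken as a whole, the stretch had a relative H3K27ac density of 1.32 ± 0.021 in old and 1.16 ± 0.0761 in young libraries and a relative input of 1.14 ± 0.0852 and 0.967 ± 0.0889 (SD, n = 5 each). The log2 differences were 0.20 and 0.23, and the ratio differed by −0.04. With the median over regions in place of pooling, H3K27ac differed by −0.0239 and input by 0.0786. Input of called regions was also pooled in fixed 1 Mb bins of the genome that held at least 5 regions in every library. The bins therefore give no input outside called regions, and those starting at 36 and 37 Mb hold regions of the stretch itself. Input in the bin that starts at 37 Mb differed by 0.25, the 22nd highest of 1270 bins. In the bins starting at 36 and 38 Mb it differed by 0.12 and −0.03. Limma called 0 of 1270 bins, with 44 at an unadjusted p under 0.05.

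Outside the stretch, the flanks of 1 Mb, whose inner borders follow from the choice of genes, showed no difference that passed the threshold. Regions in the gaps between gene windows belong to neither flank. Upstream, over 10 regions, relative H3K27ac was 1.64 ± 0.207 in old and 1.90 ± 0.277 in young libraries, a log2 difference of −0.21 (two-sided exact permutation p = 0.111, adjusted over 4 tests 0.444, n = 5 each). Relative input there was 1.39 ± 0.183 in old and 1.39 ± 0.246 in young libraries (exact permutation p = 0.952, adjusted 0.952). Downstream, over 28 regions, H3K27ac differed by −0.04 (exact permutation p = 0.635, adjusted 0.952) and input by 0.03 (exact permutation p = 0.825, adjusted 0.952). The smallest p that these libraries allow is 0.0079. The nearest flanking gene ends called throughout were Pcgf5, a Polycomb subunit, at −0.26 in H3K27ac and −0.10 in input, and Rbp4, the plasma carrier of retinol, at −0.12 and 0.01.

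Across the 10 libraries, the gene ends whose centred H3K27ac was most like the mean of the strongest regions of the 10 windows were those of Serpina6 (Pearson r = 0.94), Pts (0.93) and Cycs (0.93), of 6737 compared. Serpina6 differed by 0.50 in H3K27ac and 0.38 in input, Pts by 0.39 and 0.40 and Cycs by 0.25 and −0.36. The libraries differ in depth and IP efficiency, whose part in this likeness was not tested, and the likeness is a description. In 9 lists of 94 genes with related functions elsewhere in the genome, such as other exocyst subunits, mitotic kinesins, regulators of the TATA-binding protein and HECT ligases, 70 gene-end regions were tested. Of these, 0 were higher and 1 was lower in old in H3K27ac (limma), beside 0.271% and 0.0478% of all tested regions. The one was the end of Taf10, a subunit of TFIID, and the medians of the lists ran from −0.19 to 0.15. All 12 tested regions of the regulators of the TATA-binding protein, the list nearest to Btaf1 in function, had a median of −0.01, and the 6 of the mitotic kinesins −0.06.

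The number of regions called over the genome depended on single libraries and on settings. Limma called 40 of 12550 regions in H3K27ac, 34 higher and 6 lower in old, with 1762 at an unadjusted p under 0.05. Without any one of old replicates 1 to 5 it called 6, 12, 5, 16 and 10, and without young replicates 1 to 5 it called 100, 8, 14, 19 and 27. With IP efficiency as a covariate 0 regions were called, with 1173 at an unadjusted p under 0.05, while edgeR called 47 and DESeq2 110 without it. The split into higher and lower in old was 37 and 10 with edgeR, 60 and 50 with DESeq2, 67 and 67 on tags per region and 0 and 3 with no centring. Old libraries had the lower IP efficiency, and its part in the differences of the 4 regions was not tested.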

How the data were processed

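HOMER was run by the authors in histone style on every library apart, with the matched input as control, per the file headers. Peaks of 500 bp were stitched at a minimum distance of 1000 bp, with a minimum of 4-fold over input (p of 1e-04) and over the surrounding 10000 bp. Per the submitters' processing notes, mm10 served as the build. No aligner or HOMER version is given in the sources read for this work. The H3K27ac signal was deposited scaled to 10000000 tags per library. The input signal was scaled by the authors to the matched library and was put back on that scale. The unscaled tags, deposited in steps of 0.5, are expected counts by unit and were rounded for edgeR and DESeq2. The fold over input, a ratio deposited by the authors, entered no test, and the deposited score served as a filter in one alternative. The deposited region length (other unit, bp) is end minus start. Separate files of the 10 input samples were not analysed here.

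Regions were merged at 1 bp of overlap. A library's density was the sum of its tags over the sum of its called length, so each library brings its own borders. Regions called in all 10 libraries were tested with limma 3.58.1 (R 4.3.3), with a mean-dependent prior and Benjamini-Hochberg adjustment at 0.05. The quasi-likelihood test of edgeR 4.0.16 was an alternative, as was DESeq2 1.42.0. Other values came from Python 3.11.15 with numpy 2.4.6, pandas 2.3.3 and scipy 1.17.1. The limma fits of H3K27ac and of input were tested on data simulated with an assumed spread between libraries and 2-fold changes in 200 of 12550 regions. They recovered 75.5% of these changes in H3K27ac and 57.5% in input, with 2 false calls in each. The ratio, the bins, edgeR and DESeq2 were not simulated. Low input values came in steps of 0.5 tags (tolerance 0.0505 on the deposited scale), from which each library's unscaled input tags were obtained.

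Correlations of log2 density between libraries were 0.837 to 0.959 within ages and 0.823 to 0.938 between ages, and no libraries had near-identical values. Sequences and spans came from RefSeq tables of GRCm38.p6, the assembly of mm10, and 9 of the 10 genes had a promoter there. The members, lists and tests were chosen with earlier results of these data known. All 10 genes are described, with library values for the region of most tags in each window called in all libraries. The regions between Marchf5 and Ide and at Kif11 were added after their values were seen. The genes most like the stretch are the 3 of highest r. Alternatives are given in the closing section.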

Additional observations from a re-analysis of the deposited data

Results flagged for a closer look

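Within ages, 9 of 118 groups of 5 libraries had a highest or lowest library far from the others by Dixon's criterion (7.63%, against 5% by chance). None was among the 4 regions except at 4931408D14Rik, where H3K27ac in old replicate 3 was 134 tags per kb, and without that library the difference was still positive. In the Hectd2 window, relative H3K27ac was 0.783 in young replicate 5 and H3K27ac over input 1.98 in old replicate 4. At the Hectd2 end, input was 6.88 tags per kb in old replicate 4, and at the Gm32143 end H3K27ac was 34.1 tags per kb in young replicate 5, the library with the longer fragments. In the Cpeb3 window, relative input was 1.15 in old replicate 2 and 0.689 in young replicate 1, and inside Cpeb3 input was 5.71 tags per kb in old replicate 3 at 37187704 to 37193590. In the Marchf5 window, relative H3K27ac was 1.97 in old replicate 2. The causes of these values were not tested.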

How the results depend on the processing

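At each of the 4 regions, and in the windows of Btaf1, Fgfbp3, Ide and Kif11, H3K27ac and input stayed higher in old under the 15 or 16 alternatives run for each. Over these, the 4 regions together ranged from 0.46 to 0.72 in H3K27ac and from 0.45 to 0.77 in input, Ide from 0.16 to 0.83 in H3K27ac and Kif11 from 0.07 to 0.63. The ratio changed sign under 3 of 16 alternatives for the 4 regions together. In the gene windows it changed sign under 6 of 16 at Btaf1, 5 of 15 at Fgfbp3, 7 of 15 at Ide and 8 of 16 at Kif11. The 3 regions between ranged from −0.72 to 0.08 in H3K27ac and from −0.60 to 0.15 in input, and the remaining 6 from −0.12 to 0.12 and from −0.15 to 0.14. The other windows ranged in H3K27ac and input from −0.13 to 0.54 and −0.22 to −0.03 at Hectd2, −0.47 to 0.02 and −0.19 to 0.20 at Tnks2, −0.23 to 0.20 and −0.02 to 0.23 at Cpeb3, −0.18 to 0.17 and 0.01 to 0.65 at Marchf5, −0.25 to 0.78 and −0.78 to 0.46 at Hhex, and −0.50 to 0.41 and −0.06 to 0.39 at Exoc6. The 40 regions called over the genome in H3K27ac became 3 without centring, 134 with tags per region in place of per kb, 3 with a stricter HOMER score, 110 with DESeq2, 0 with IP efficiency as a covariate and 18 with gene ends and other regions centred apart, which was added after seeing the data. Leaving out 1 library gave 5 to 100. The replicate number as a block gave 18. Same-numbered libraries correlated at −0.014 to 0.211 in H3K27ac and at −0.390 to 0.393 in input, with 2 of 5 pairs above 0.1 in each. In each measure, 3 of 10 libraries correlated best with their own number. These values do not decide whether the numbers pair the libraries. No centring shifted the median region by −0.16. For the whole stretch, the median over regions gave −0.0239 in H3K27ac and 0.0786 in input, and no comparison set gave 0.0543 in H3K27ac and −0.23 in H3K27ac over input. The causes of these shifts were not tested. Input, ratio and bin fits called 0 under all alternatives run. Input is limited by few tags in weak regions, and signal below the calling threshold is not seen here.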
